A study of Homo sapiens with 9 samples.

Results

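Heat shock chaperones of the cytosol and the mitochondria were followed in AC16, an established human line that was derived by fusion of ventricular heart cells with fibroblasts. The group comprised 49 genes chosen by name from what these proteins do: Hsp70 and its helpers, J-domain proteins, Hsp90 and its co-chaperones, small heat shock proteins, the mitochondrial chaperonin, the TRiC/CCT chaperonin and the heat shock factors. The choice was made with earlier results of these data known, so the counts below do not come from a set fixed beforehand. All 49 names were among the 60671 rows of the table, in 50 rows because HSPA14 is listed 2 times, and all 50 rows passed the filter on low values that left 16996 rows for testing. The series holds 9 libraries of polyadenylated RNA, 3 in each of 3 groups: cells in low glucose, cells in high glucose, and cells in high glucose to which chrysin, a plant flavonoid, was added. The titles of that group begin with Bai, which the labels do not explain, so its identity rests on the treatment label. The sources used here do not state glucose concentrations, the dose of chrysin, the length of exposure or any vehicle given to the other cells. Nothing in the labels ties the replicates to separate cultures, so p-values reflect the variation among these 9 libraries alone, and that may be technical.

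Chaperones bind unfolded or partly folded proteins and release them in cycles driven by ATP. In the cytosol J-domain proteins deliver clients to Hsp70, nucleotide exchange factors such as the BAG and Hsp110 proteins reset it, and Hsp90 with its co-chaperones finishes the folding of kinases and receptors. The ring-shaped TRiC/CCT folds actin and tubulin, and HSPD1 with its lid HSPE1 folds proteins imported into mitochondria. Many of these genes are induced by the transcription factor HSF1, which binds heat shock elements, inverted repeats of the unit GAA in promoters. In heart cells this system is known for protecting the contractile apparatus and mitochondria under stress.

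The libraries held 18171842 to 23024300 reads, as recovered from the deposited FPKM values, which are fragment counts scaled for transcript length and sequencing depth. Of 11 cardiomyocyte markers MYL2 and NKX2-5 were at 0 in every library and 8 stayed under 0.5 FPKM in all of them, TNNT2, MYH6 and MYH7 among them, although the labels call the line cardiomyocyte; GATA4 (8.50 to 10.4 FPKM) made up most of the sum of the list, which was 9.38 to 10.2 FPKM in the low glucose libraries, 9.80 to 11.4 in the high glucose libraries and 14.4 to 15.4 with chrysin. Cardiac actin ACTC1 had means of 0.385, 0.389 and 4.83 FPKM in those groups. The sum of the 8 fibroblast markers was 7630 to 7930 FPKM in low glucose libraries and 9040 to 9510 in the high glucose libraries. Of the 8, only THY1, COL1A1 and COL1A2 were called higher between those groups, and 5 were not called. COL1A1, with means of 3707 and 5138 FPKM, made up most of that rise in the sum. With chrysin the sum was 6350 to 6510 FPKM, and 7 of the 8 markers fell against high glucose. The sums of the 4 endothelial and of the 4 macrophage markers did not exceed 1.63 and 1.73 FPKM in any library, and CD163 was at or near 0 throughout. Reads of mitochondrially encoded genes made up 2.79% to 3.04% of each library without chrysin and 3.80% to 3.89% with it. High glucose library 1 was farther from its replicates than other libraries were: over 10029 genes of at least 5 FPKM the SD of the log2 ratio was 0.157 and 0.163 for its 2 pairs, against 0.126 to 0.148 for the other 7 replicate pairs. The part of these differences in the chaperone results was not tested, but the counts are given with and without that library. In bulk RNA, fewer cells of a kind and less RNA per cell cannot be told apart.

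The promoters are shown first because heat shock elements are the feature that many of these genes share in sequence. RefSeq promoters on GRCh38.p14 were matched by symbol for 43 of the 49 genes, and HSPA14, BAG4, FKBP4, STUB1, CRYAB and HSF1 had no entry. The 250 bases before each start were searched on both strands for 2 units (GAANNTTC or TTCNNGAA) and for 3 units, which extend such a match by a further GAA or TTC in alternation after any 2 bases and so also contain 2 units. A 3-unit match stood before 6 of the 43 genes (14.0%), against 152 of all 27305 genes in the same table (0.557%). A match of at least 2 units stood before 19 of them (44.2%), against 14.0% of all genes. The stretches below run 5′ to 3′ on the strand of the gene, 30 bases each, with the matched units in capitals. They are the 6 members with at least 3 units, followed by 4 of the 13 with 2 units only. Others of the 13 are described in as much detail below. The 4 printed were called higher in high against low glucose and with chrysin against high glucose, so they do not stand for all 13. Of the 13, 7 rose in each of these comparisons, and HSPB1, not printed, fell with chrysin. In CHORDC1 and HSPD1 3-unit matches overlap, so more than 3 units are in capitals there.
CHORDC1 (chr11:90223078-90223107, minus strand): aaaTTCgcGAAggTTCctGAAacgcaacgg
HSPD1 (chr2:197500059-197500088, minus strand): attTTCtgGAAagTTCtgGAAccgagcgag
HSPA8 (chr11:123062170-123062199, minus strand): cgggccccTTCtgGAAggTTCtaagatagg
HSP90AA1 (chr14:102087111-102087140, minus strand): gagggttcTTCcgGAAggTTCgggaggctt
HSP90AB1 (chr6:44247823-44247852, plus strand): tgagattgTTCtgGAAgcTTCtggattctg
DNAJB6 (chr7:157336865-157336894, plus strand): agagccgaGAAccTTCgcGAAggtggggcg
HSPA1A (chr6:31815426-31815455, plus strand): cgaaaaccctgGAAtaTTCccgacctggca
HSPA1B (chr6:31827622-31827651, plus strand): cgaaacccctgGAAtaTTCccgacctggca
DNAJB1 (chr19:14518426-14518455, minus strand): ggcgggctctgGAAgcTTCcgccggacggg
DNAJA1 (chr9:33025064-33025093, plus strand): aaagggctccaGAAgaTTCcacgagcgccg
The stretches of HSPA1A and HSPA1B, neighbouring copies of the stress-inducible Hsp70 gene, carry the same match, 106 and 105 bases before their starts, and that of HSPA1A is shared with HSPA1L, which runs the other way. The HSPD1 stretch lies within the annotated HSPE1 gene, which starts on the opposite strand from the same region. A match is a description of these letters and no evidence of binding, and no match says only that the letters are not in this window.

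High glucose against low glucose compared the chaperones between the sugar levels, with no osmotic control among the groups. Of the 50 rows, 22 were higher and 4 lower in high glucose (limma, adjusted p under 0.05) or 44.0% and 8.0%, where 14.6% and 8.91% of all genes tested were higher and lower. The median log2 difference of the 50 rows was 0.09, against 0.02 over all genes, with a range from -0.31 (HSPA13) to 0.94 (HSPA2). The share of lower rows was thus near that of all genes. Of the chaperone calls 18 were under 0.3 in size. A mean of at least 5 FPKM was reached by 45 of the 50 rows, beside 10029 of the 16996 rows tested. No share over genes of matched level was computed. Without high glucose library 1 the counts were again 22 and 4. Higher genes made up 62.2% of the calls over all genes, but 51.6% with median-of-ratios scaling and 48.2% with limma voom on recovered reads. The chaperone counts under those scalings were 20 higher and 5 lower, and 21 higher and 6 lower. By family, 8 of 17 Hsp70 and nucleotide exchange rows, 5 of 9 J-domain genes, 5 of 10 Hsp90 genes and 4 of 7 TRiC/CCT genes rose. The 4 genes that fell were HSPA13, HSPA9, DNAJA3 and HSF1.

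Chrysin added to high glucose asked what the flavonoid changed on top of the sugar. Of the 50 rows, 28 were higher and 4 lower than in high glucose alone, 56.0% and 8.0%, where 24.9% and 20.9% of all genes were. The median log2 difference was 0.16, against 0.03 over all genes, with a range from -0.47 (DNAJB2) to 0.65 (HSPA4L). Without high glucose library 1 the counts were 30 and 4. They were 24 and 4 with median-of-ratios scaling, and 25 and 4 with limma voom or with no filter. Of the calls over all genes 54.3% were higher, but 46.5% with limma voom. The 28 rises took in 9 of 17 Hsp70 and nucleotide exchange rows, 5 of 9 J-domain genes, 7 of 10 Hsp90 genes, 4 of 7 TRiC/CCT genes, HSPD1 and both heat shock factors. The 4 falls were DNAJB2, HSPB1, CCT7 and PTGES3. High glucose with chrysin set against low glucose gave 36 higher and 5 lower rows, 72.0% and 10%, beside 29.7% and 21.3% of all genes, and a median of 0.23 against 0.05. Among those 5 lower rows, HSPB8 passed the filter only through low glucose, where it was highest, and the libraries of DNAJB5 overlapped. Higher genes made up 58.3% of all calls in that comparison and 45.8% with limma voom, which called 30 of the chaperone rows higher and 7 lower. The comparisons share libraries, so their counts are not independent of each other.

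**Figure D1:**
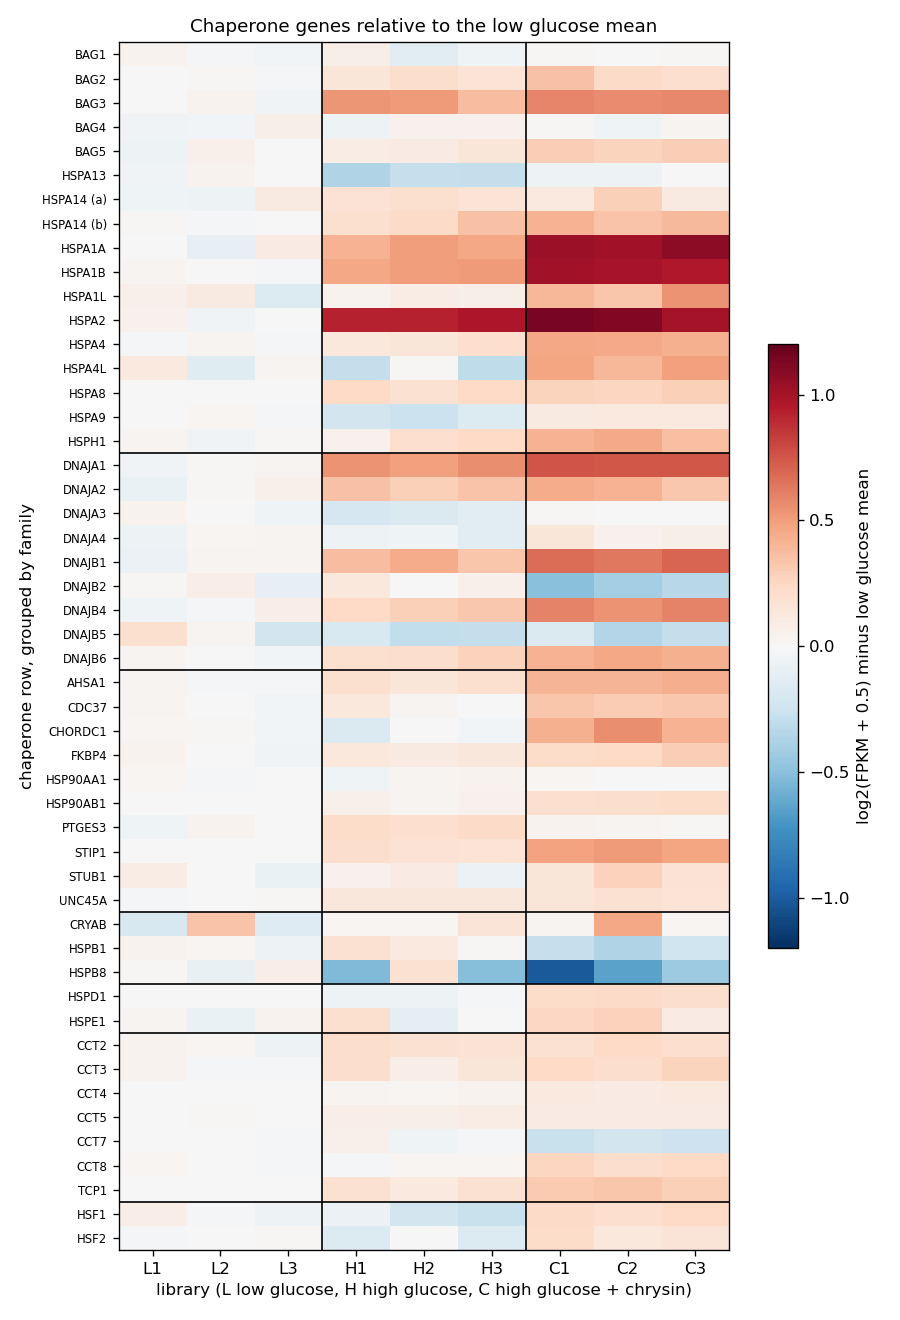
Heat map of the 50 chaperone rows (vertical axis, grouped by family in the order Hsp70 and nucleotide exchange, J-domain, Hsp90, small heat shock, mitochondrial chaperonin, TRiC/CCT, heat shock factors) in the 9 libraries (horizontal axis); colour is log2(FPKM + 0.5) minus the low glucose mean of the row. HSPA1A, HSPA1B and HSPA2 are the deepest red with chrysin, and DNAJB2, DNAJB5, HSPB1, HSPB8 and CCT7 are blue there. HSPA14 (a) and (b) are the 2 rows of that name.

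Levels are compared between genes per length, in FPKM, and differences between groups are on the log2(FPKM + 0.5) scale unless a fold is named. SE is the standard error of such a difference, and a bare value in parentheses after a setting or a left-out library is the adjusted p under it, from 17 alternative analyses in all. HSP90AA1 (mean over the 9 libraries 1950 FPKM), HSPA8 (1570 FPKM), HSPD1 (884 FPKM) and HSP90AB1 (815 FPKM) led, and 23 rows had a mean of at least 100 FPKM. DNAJA4, HSPA4L, CRYAB, HSPA1L and HSPB8 had means under 5 FPKM. Together the 50 rows took 1.62% to 1.64% of the FPKM summed over all genes of a low glucose library, 1.72% to 1.75% in high glucose and 1.84% to 1.85% with chrysin, and the groups did not overlap. By the hg38 annotation (GENCODE 29), 16 of the 50 chaperone genes overlap another gene on the same strand and 28 on the other strand, and the sources used here do not state whether reads were counted by strand.

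HSPA8, the constitutive cytosolic Hsp70, was the most abundant Hsp70. Its levels were 1401, 1404 and 1397 FPKM in low glucose, 1652, 1594 and 1655 in high glucose and 1686, 1670 and 1703 with chrysin. Low glucose lay below all 6 other libraries, and HSPA8 rose in high glucose by 0.22 (SE 0.02, adjusted p = 5.7e-05). With chrysin the further difference of 0.05 on the log2 scale did not pass the test (adjusted p = 0.1); leaving out high glucose library 1 brought it past the threshold (0.045).

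HSPA1A and HSPA1B encode the Hsp70 that cells make upon heat shock and other protein damage. HSPA1A (chromosome 6, 31815464 to 31817946, plus strand, hg38) stood at 5.60, 5.18 and 6.01 FPKM in low glucose, 7.62, 8.10 and 7.91 in high glucose and 11.97, 11.8 and 12.3 with chrysin. HSPA1B (chromosome 6, 31827735 to 31830255, plus strand) stood at 14.7, 14.3 and 14.1, then 20.1, 20.6 and 20.7, then 29.4, 29.1 and 28.4 FPKM in the same order. In both genes every high glucose library lay above every low glucose library and below every chrysin library. In high against low glucose HSPA1A was 1.38-fold higher (log2 0.46, SE 0.07, adjusted p = 0.00081) and HSPA1B 1.41-fold (0.50, SE 0.04, adjusted p = 2.3e-05). Chrysin raised them a further 1.49-fold (0.58, adjusted p = 5e-05) and 1.41-fold (0.49, adjusted p = 4.7e-06). The pair are near-identical copies, so reads that fit both may have been split or dropped, and each level is uncertain; 203 to 587 reads stood behind HSPA1A and 656 to 1587 behind HSPA1B. Their sum was 1.39% to 1.45% of the HSPA8 level in the low glucose libraries, 1.68% to 1.80% in the high glucose ones and 2.39% to 2.45% with chrysin. HSPA1L, which is expressed mainly in the testis and shares that locus, stayed between 0.209 and 0.653 FPKM on 11 to 40 reads per library. HSPA1L passed in none of the 3 comparisons (limma, adjusted p from 0.069 to 0.84), although limma voom called chrysin higher against high glucose (adjusted p = 0.042) and against low glucose (0.019), the latter also with no filter (0.036). It passed the filter on low values only through the chrysin group (mean 0.570 FPKM), so the filter itself favoured the limma voom calls.

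HSPA2, an Hsp70 best known from male germ cells (chromosome 14, 64535905 to 64546173, plus strand), moved most of all members in high glucose. It was at 8.70, 8.13 and 8.39 FPKM in low glucose, 16.4, 16.4 and 16.9 in high glucose and 19.1, 18.8 and 17.3 with chrysin. It rose 1.92-fold in high glucose (log2 0.94, SE 0.05, adjusted p = 1.5e-06), with no overlap. The added difference with chrysin was small (0.15, adjusted p = 0.046), and its call was lost under 13 of the 17 alternatives, among them leaving out any low or high glucose library or chrysin library 1 or 2 (adjusted p from 0.05 to 0.15). HSPA13, an Hsp70 of microsomes and so outside the compartments of the other members, went the other way in high glucose, with 40.0, 42.5 and 42.1 FPKM there against 49.9, 53.0 and 51.7 in low glucose, and 49.5, 49.4 and 51.7 with chrysin. It fell by 0.31 in high glucose (adjusted p = 0.00031) and rose by 0.27 with chrysin (adjusted p = 0.00021). Its chrysin and low glucose libraries overlapped (-0.04, adjusted p = 0.45), though limma voom called chrysin lower (0.019).

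HSPA14, a ribosome-associated Hsp70, appears in 2 rows that belong to overlapping annotations on chromosome 10, and reads of the shared exons cannot be told apart. The row with higher values was at 22.5, 22 and 22.4 FPKM in low glucose, 25.5, 26.2 and 28.5 in high glucose and 29.9, 28.4 and 29.4 with chrysin. It rose in high glucose (0.26, adjusted p = 0.0032) and was higher with chrysin than in low glucose (0.38, adjusted p = 6.2e-05). Its difference of 0.13 between chrysin and high glucose was just above the threshold (adjusted p = 0.05) and fell just below it with a pseudocount of 1, a minimum of 5 FPKM (0.041) or without high glucose library 3 (0.011). The other row ranged from 14.8 to 18.9 FPKM and differed by 0.18 in high glucose (adjusted p = 0.067), which passed with a minimum of 5 FPKM (0.044) or without chrysin library 2 (0.048) or low glucose library 3 (0.035). It was called higher with chrysin than in low glucose (0.17, adjusted p = 0.042), a call lost under 10 of the 17 alternatives (0.053 to 0.22), among them leaving out library 1 or 2 of low glucose, library 2 or 3 of high glucose or library 2 of chrysin.

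The Hsp110 proteins HSPH1, HSPA4 and HSPA4L act as nucleotide exchange factors for Hsp70. HSPH1 was at 72.8, 68.9 and 71.9 FPKM in low glucose, 73.6, 82.2 and 84.2 in high glucose and 95.4, 98.0 and 91.7 with chrysin. The chrysin libraries lay above all others, a rise of 0.25 (SE 0.05, adjusted p = 0.0019). The rise in high glucose (0.16, adjusted p = 0.035) lost its call under 9 of 17 alternatives: when low glucose library 1 (0.058), 2 (0.11) or 3 (0.073) was dropped, when library 2 (0.11) or 3 (0.11) of high glucose was, with no filter (0.09), median-of-ratios scaling (0.07), the replicate number as a block (0.058) or only the groups compared (0.057). HSPA4 stood at 130, 134 and 129, then 143, 145 and 150, then 181, 179 and 176 FPKM. Its groups did not overlap, and it rose by 0.16 (adjusted p = 0.0028) and by 0.29 (adjusted p = 1.6e-05). HSPA4L was much lower, at 4.40, 3.58 and 4.13 FPKM in low glucose, 3.21, 4.07 and 3.17 in high glucose and 5.78, 5.46 and 5.87 with chrysin, and its low and high glucose libraries overlapped. Chrysin raised it 1.57-fold over high glucose (0.65, SE 0.11, adjusted p = 0.00064), the largest rise among the members in that comparison. By Pearson's r of log2(FPKM + 0.5) over the 9 libraries, which share the same 3 groups, the genes most like HSPH1 were CHD8 (0.987), PHLPP2 (0.985), PEX26 (0.985), ZFC3H1 (0.985) and CAPRIN1 (0.983). These are the highest values among 9736 genes searched, and no relation to HSPH1 was tested.

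The BAG proteins also open the nucleotide site of Hsp70, and BAG3 links it to small heat shock proteins and selective autophagy. BAG3 (chromosome 10, 119651370 to 119677819, plus strand) was at 52.4, 54.1 and 50.9 FPKM in low glucose, 75.8, 74.8 and 67.8 in high glucose and 78.8, 77.8 and 78.7 with chrysin. It rose 1.38-fold in high glucose (0.47, SE 0.04, adjusted p = 5.2e-05). The chrysin libraries lay just above the high glucose libraries, and that difference of 0.11 did not pass the test (adjusted p = 0.064) unless high glucose library 1 was left out (0.028) or a minimum of 5 FPKM was set (0.046). BAG5 rose with chrysin (0.18, adjusted p = 0.0079), and BAG2 passed only for chrysin against low glucose (0.26, adjusted p = 0.0071), except that limma voom also called it in high glucose (0.045). BAG1 and BAG4 had values from 22.2 to 25.5 and from 15.5 to 17.0 FPKM over the 9 libraries and passed in no comparison (adjusted p from 0.56 to 0.92 and from 0.83 to 0.99).

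**Figure D2:**
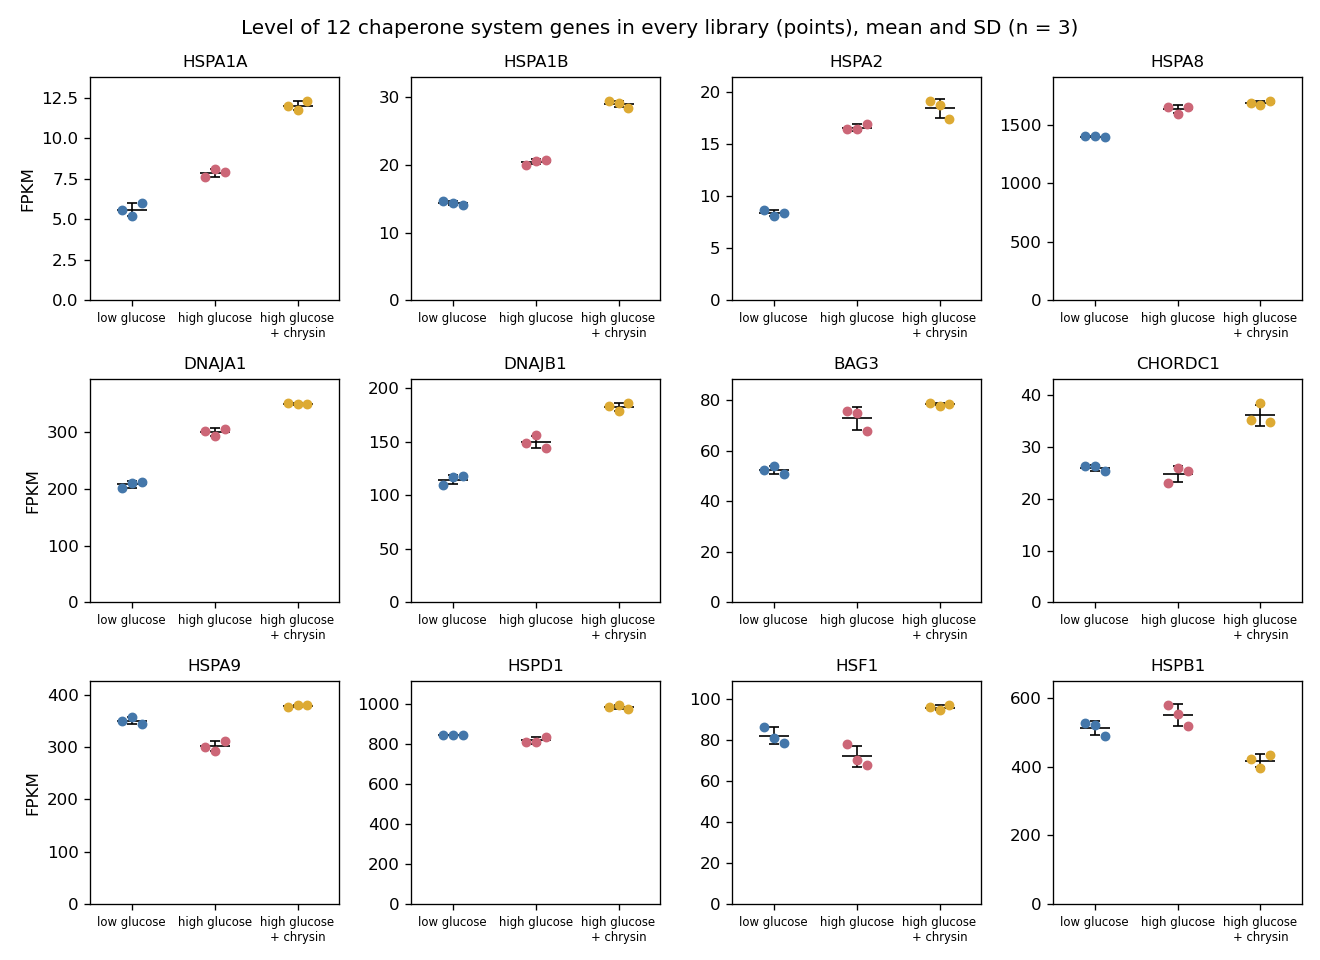
FPKM (vertical axes, from 0) of 12 members in the 3 groups (horizontal axes); points are libraries, horizontal bars the mean and error bars the SD (n = 3). HSPA1A, HSPA1B, DNAJA1 and DNAJB1 step up from low to high glucose and again with chrysin, HSPA9 and HSF1 are lowest in high glucose, CHORDC1 and HSPD1 are higher with chrysin, and HSPB1 is lower there.

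J-domain proteins set which clients Hsp70 binds. DNAJA1 (chromosome 9, 33025211 to 33039907, plus strand), the main cytosolic partner of HSPA8, was at 202, 210 and 213 FPKM in low glucose, 302, 293 and 306 in high glucose and 352, 349 and 350 with chrysin. Its 3 groups were separate, with rises of 0.53 (SE 0.03, adjusted p = 6.8e-07) and 0.22 (SE 0.03, adjusted p = 7.6e-05). DNAJB1, the heat-inducible Hsp40 that also takes part in disaggregation and in switching HSF1 off, stood at 110, 117 and 118, then 149, 156 and 144, then 183, 179 and 186 FPKM. It rose by 0.38 (adjusted p = 6.8e-05) and by 0.29 (adjusted p = 0.00012), again with no overlap. DNAJB1 overlaps TECR on the other strand, so reads of the pair cannot be told apart without strand.

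DNAJB4 and DNAJB6, of which the latter keeps polyglutamine proteins from aggregating, also rose in both comparisons. DNAJB4 was at 41.9, 42.7 and 45.9 FPKM in low glucose, 51.4, 53.2 and 54.5 in high glucose and 65.9, 63.5 and 65.9 with chrysin (log2 0.28 and 0.29, adjusted p = 0.00075 and 0.00018). DNAJB6 was at 109, 106 and 105, then 122, 124 and 130, then 143, 148 and 143 FPKM (0.23 and 0.21, adjusted p = 0.0006 and 0.00031). Neither gene's groups overlapped. DNAJA2, another general partner of HSPA8, rose in high glucose from 55.9, 59.6 and 61.7 to 75.2, 71.9 and 74.7 FPKM (0.32, adjusted p = 0.00057). With chrysin it was at 80.4, 78.8 and 73.8 FPKM, overlapping high glucose (0.07, adjusted p = 0.23).

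DNAJB2, which hands ubiquitinated clients to the proteasome and is best known from neurons, fell with chrysin. It was at 36.5, 38.3 and 33.8 FPKM in low glucose, 39.5, 36.0 and 37.7 in high glucose and 25.4, 27.2 and 28.6 with chrysin. The low and high glucose libraries overlapped and all chrysin libraries lay below them, a fall to 0.72 of the high glucose level (-0.47, SE 0.06, adjusted p = 8.1e-05). DNAJB5 was lower with chrysin than in low glucose (-0.27, adjusted p = 0.036) in overlapping groups. Its low glucose libraries ranged from 12.1 to 16.3 FPKM, and that call was lost when library 1 (0.14) or 2 (0.092) of low glucose or library 2 (0.11) or 3 (0.087) of chrysin was dropped, with no filter (0.083) or with a fit of the 2 groups alone (0.054). Its high glucose difference (-0.25, adjusted p = 0.08) passed with a minimum of 5 FPKM (0.045), limma voom (0.011), the replicate block (0.044) or without low glucose library 3 (0.012). DNAJA4 stayed between 3.99 and 4.90 FPKM and passed in no comparison (adjusted p from 0.098 to 0.51).

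The cytosol holds an inducible and a constitutive form of Hsp90. HSP90AA1, the inducible form, was at 1973, 1930 and 1937 FPKM in low glucose, 1883, 1990 and 1999 in high glucose and 1975, 1959 and 1935 with chrysin. All groups overlapped and no comparison passed (limma, adjusted p from 0.83 to 1.0), but under limma voom chrysin against low glucose turned from 0.01 to -0.07 and was called lower (adjusted p = 0.007). HSP90AB1, the constitutive form, was at 765, 768 and 766, then 798, 786 and 795, then 879, 885 and 890 FPKM. Its groups were separate. It rose with chrysin against high glucose (0.16, SE 0.02, adjusted p = 6.1e-05), while high against low glucose did not pass (0.05, adjusted p = 0.087). The ratio of HSP90AA1 to HSP90AB1 was 2.51 to 2.58 in the low glucose libraries, 2.36 to 2.53 in the high glucose ones and 2.17 to 2.25 with chrysin.

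Of the 8 co-chaperones of Hsp90, 5 rose in high glucose and 6 rose with chrysin, where 14.6% and 24.9% of all genes tested rose. Some of these calls were lost under alternatives, as given below. STIP1, the adaptor that passes clients from Hsp70 to Hsp90, was at 351, 350 and 349 FPKM in low glucose, 404, 395 and 391 in high glucose and 488, 498 and 486 with chrysin. It rose by 0.18 (adjusted p = 0.00027) and by 0.31 (adjusted p = 1.8e-06), with no overlap between groups. AHSA1, the activator of the Hsp90 ATPase, was at 167, 160 and 162, then 187, 180 and 186, then 217, 217 and 221 FPKM (0.18 and 0.24, adjusted p = 0.00098 and 3.2e-05). FKBP4, an immunophilin of steroid receptor complexes, rose by 0.12 in high glucose (adjusted p = 0.012) and by 0.13 with chrysin (adjusted p = 0.0043). The high glucose call of FKBP4 was lost without low glucose library 3 (0.054) and with limma voom (0.055).

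CHORDC1, a zinc-binding co-chaperone whose promoter holds the run of units printed first above, rose with chrysin and did not differ detectably between low and high glucose. It was at 26.4, 26.2 and 25.3 FPKM in low glucose, 23.0, 25.9 and 25.4 in high glucose and 35.2, 38.5 and 34.8 with chrysin. Low and high glucose overlapped (-0.07, adjusted p = 0.42), and chrysin raised it 1.45-fold (0.54, SE 0.06, adjusted p = 2e-05). CDC37, which loads kinases onto Hsp90, was at 250, 245 and 239 FPKM, then 267, 251 and 246, then 308, 302 and 306. Its rise with chrysin was 0.26 (adjusted p = 7e-05), and its high glucose difference of 0.05 did not pass (adjusted p = 0.26).

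PTGES3, the co-chaperone p23 that stabilises the closed Hsp90 dimer, rose in high glucose and fell with chrysin. It was at 190, 202 and 196 FPKM in low glucose, 228, 226 and 230 in high glucose and 201, 201 and 198 with chrysin (0.22, adjusted p = 0.0003, and -0.19, adjusted p = 0.00023). The chrysin libraries lay within the range of low glucose. UNC45A, a chaperone of myosin, rose in high glucose (0.14, adjusted p = 0.0038) and did not pass for chrysin (0.03, adjusted p = 0.44). STUB1, the ubiquitin ligase CHIP, rose with chrysin by 0.17 (adjusted p = 0.028). That call was lost without high glucose library 3 (0.1) or chrysin library 2 (0.11) or 3 (0.05), with no filter (0.073), median-of-ratios scaling (0.057) or limma voom (0.052).

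**Figure D3:**
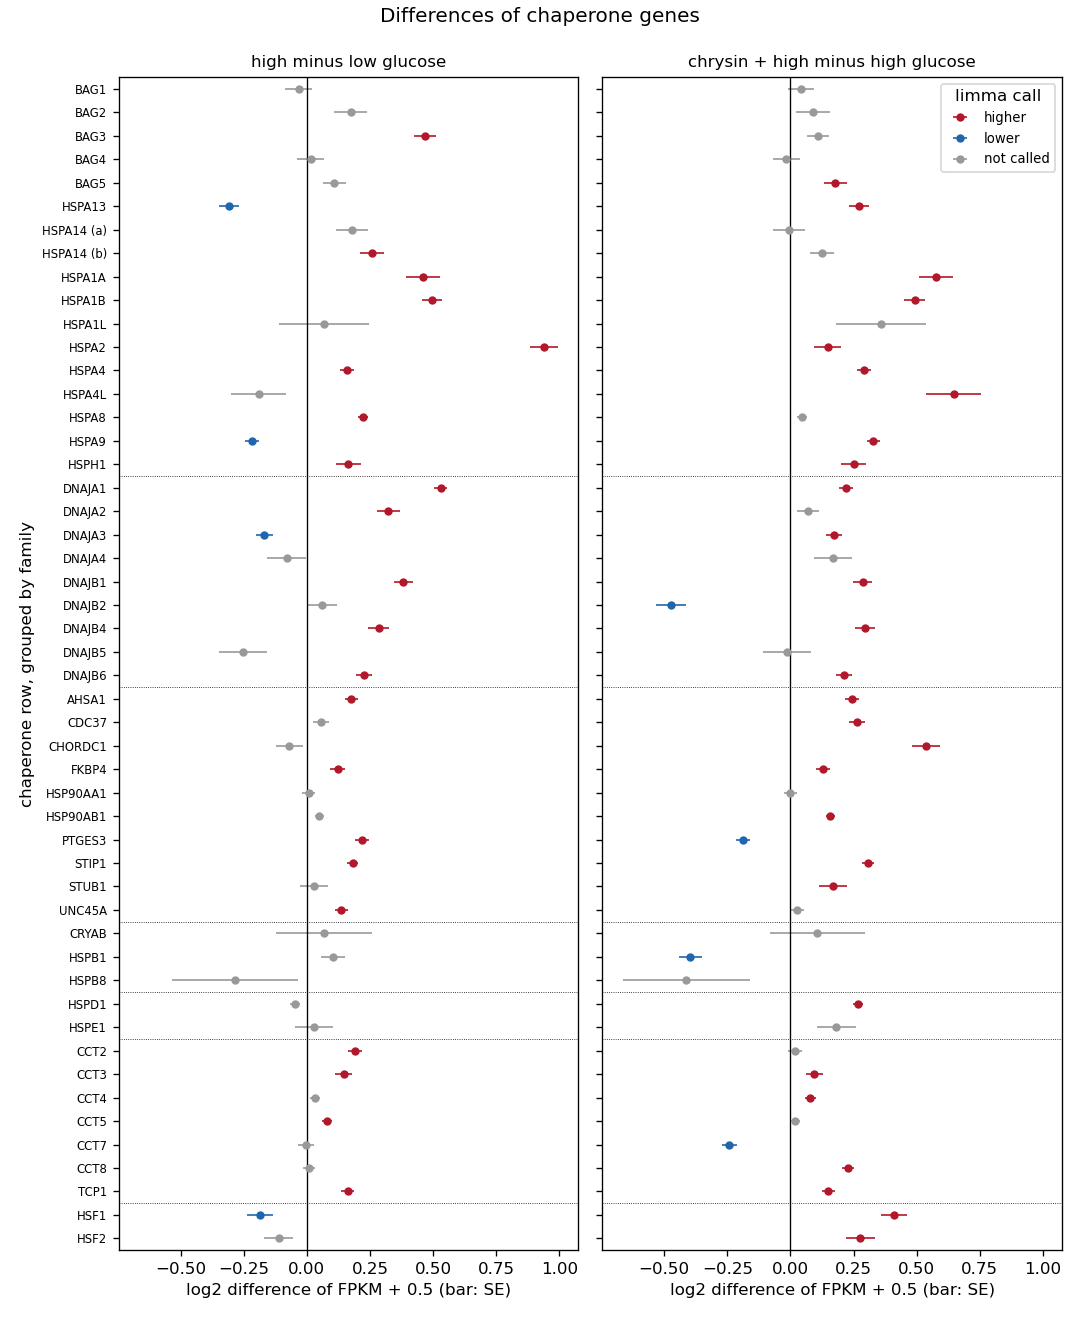
Log2 differences of the 50 chaperone rows (vertical axis, families separated by dotted lines) for high minus low glucose (left) and for chrysin with high glucose minus high glucose (right); points are estimates on the log2(FPKM + 0.5) scale, bars their SE, red and blue the rows that limma called higher and lower. Most called rows lie to the right of 0 in both panels (22 of 26 and 28 of 32), with HSPA2 farthest at left and HSPA4L farthest at right. Over all genes tested, higher genes made up 62.2% and 54.3% of the calls.

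Small heat shock proteins hold unfolding proteins in a state that Hsp70 can refold. HSPB1 (chromosome 7, 76302544 to 76304295, plus strand) was the only abundant one, at 526, 520 and 488 FPKM in low glucose, 578, 554 and 516 in high glucose and 421, 397 and 433 with chrysin. Low and high glucose overlapped, and all chrysin libraries lay below both. It fell with chrysin by 0.40 against high glucose (SE 0.05, adjusted p = 4.8e-05) and by 0.29 against low glucose (adjusted p = 0.00032). High against low glucose did not pass (0.10, adjusted p = 0.14) but did without high glucose library 3 (0.039). CRYAB, a small heat shock protein abundant in adult heart muscle, was near the floor here, at 0.811, 1.40 and 0.838 FPKM in low glucose, 1.02, 1.02 and 1.16 in high glucose and 1.03, 1.56 and 1.02 with chrysin, on 17 to 31 reads. It overlaps HSPB2 on the other strand and passed in no comparison (adjusted p from 0.47 to 0.84). HSPB8, the partner of BAG3, was at 0.514, 0.443 and 0.563 FPKM in low glucose, 0.198, 0.641 and 0.207 in high glucose and 0, 0.144 and 0.242 with chrysin, on 0 to 11 reads per library. Its fall with chrysin against low glucose (-0.70, adjusted p = 0.038) did not survive the removal of low glucose library 1 (0.085) or 2 (0.065) or chrysin library 1 (0.12) or 2 (0.065). HSPB8 passed the filter of 0.5 FPKM only through low glucose (mean 0.507 FPKM), where it was highest, so the filter itself favoured a fall from that group.

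Of the 4 mitochondrial members, HSPA9 and DNAJA3 fell in high glucose, and HSPA9, DNAJA3 and HSPD1 rose with chrysin. Over all genes tested 8.91% fell in high glucose and 24.9% rose with chrysin. HSPA9, the mitochondrial Hsp70 mortalin (chromosome 5, 138553756 to 138575724, minus strand), was at 350, 356 and 344 FPKM in low glucose, 300, 293 and 312 in high glucose and 376, 380 and 379 with chrysin. It fell by 0.22 in high glucose (SE 0.03, adjusted p = 0.00031) and rose by 0.33 with chrysin (SE 0.03, adjusted p = 4.7e-06). The call of chrysin above low glucose (0.11, adjusted p = 0.0055) was lost with median-of-ratios scaling (0.13) and limma voom (0.37). DNAJA3, the J-domain partner of HSPA9, also moved both ways, falling by 0.17 (adjusted p = 0.0044) and rising by 0.17 (adjusted p = 0.0015) to 72.6 to 73.7 FPKM, within the low glucose range of 70.6 to 75.2 FPKM.

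HSPD1, the mitochondrial chaperonin Hsp60 (chromosome 2, 197486581 to 197516737, minus strand), was at 848, 846 and 844 FPKM in low glucose, 809, 811 and 837 in high glucose and 986, 995.4 and 977 with chrysin. High glucose lay just below low glucose (-0.05, adjusted p = 0.14), a difference that passed with median-of-ratios scaling (0.026) and limma voom (0.01). Chrysin raised it by 0.27 (SE 0.02, adjusted p = 3.3e-06), with no overlap. Its lid HSPE1 (chromosome 2, 197499994 to 197503457, plus strand) was read at 26.2, 24.3 and 26.4, then 29.4, 23.7 and 25.6, then 30.6, 31.1 and 27.6 FPKM, a level 27.6 to 35.4 times below HSPD1. HSPE1 overlaps the readthrough gene HSPE1-MOB4 on the same strand and HSPD1 on the other, and the sources used here do not state how shared reads were assigned. HSPE1-MOB4 was listed at 0 in every library. So the level of HSPE1 is uncertain, and its difference of 0.18 with chrysin did not pass (adjusted p = 0.072), although it did without high glucose library 1 (0.0081) or chrysin library 3 (0.044) and with a minimum of 5 FPKM (0.045). Its call against low glucose (0.21, adjusted p = 0.04) was lost under 8 of 17 alternatives (0.057 to 0.26), leaving out any low glucose library or chrysin library 1 or 2 among them. Reads of mitochondrially encoded genes also took a larger share of the chrysin libraries, and the part of that shift in these rises was not tested.

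TRiC/CCT is built from 8 kinds of subunit, of which 7 are members and CCT6A was measured beside them. CCT5 was the highest, at 679, 687 and 679 FPKM in low glucose, 721, 716 and 723 in high glucose and 730, 731 and 728 with chrysin, and CCT4 the lowest, at 267, 270 and 269, then 274, 273 and 277, then 291, 288 and 291 FPKM. TCP1 was at 318, 317 and 317 FPKM in low glucose, 360, 344 and 361 in high glucose and 396, 400 and 386 with chrysin. It rose in both comparisons (0.16, adjusted p = 0.0014, and 0.15, adjusted p = 0.00078), with no overlap, and CCT6A did too (0.13, adjusted p = 0.0028, and 0.14, adjusted p = 0.00063). CCT2 and CCT5 rose in high glucose (0.19 and 0.08, adjusted p = 0.0011 and 0.012), CCT8 rose with chrysin (0.23, adjusted p = 3e-05), and CCT3 in high glucose (0.15, adjusted p = 0.01). CCT5 lost its high glucose call with median-of-ratios scaling (0.09) and limma voom (0.17).

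CCT7 was the only member of the ring called lower with chrysin. It was at 508, 509 and 500 FPKM in low glucose, 529, 488 and 497 in high glucose and 420, 434 and 425 with chrysin, where every library lay below the other 6. It fell against high glucose (-0.24, SE 0.03, adjusted p = 8.5e-05), and high against low glucose did not pass (-0.004, adjusted p = 0.95). Set against the mean of the other 6 members of the ring, CCT7 was 1.34 to 1.35 times as high in the low glucose libraries, 1.23 to 1.30 times in the high glucose ones and 0.983 to 1.02 times with chrysin. The remaining chrysin calls, of CCT4 (0.08, adjusted p = 0.01) and CCT3 (0.09, adjusted p = 0.043), were small, and both were lost with median-of-ratios scaling (0.082 and 0.15) and limma voom (0.29 and 0.19). CCT3 also lost that call without high glucose library 2 (0.15) or 3 (0.079), chrysin library 1 (0.089), 2 (0.057) or 3 (0.13), or low glucose library 2 (0.057) or 3 (0.054), with no filter (0.1) or with a fit of the 2 groups alone (0.063).

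**Figure D4:**
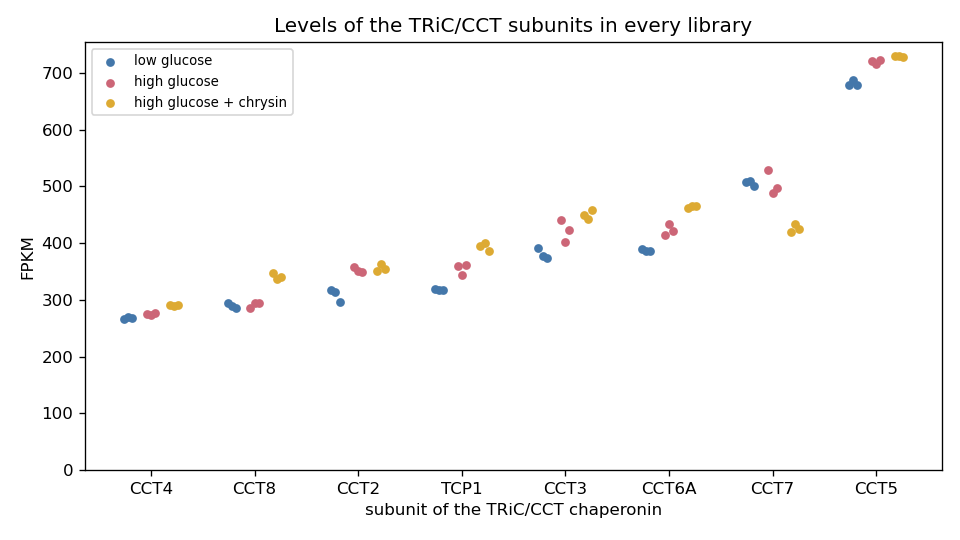
FPKM (vertical axis, from 0) of the 8 TRiC/CCT subunits (horizontal axis, ordered by their low glucose mean) in each of the 9 libraries, coloured by group. CCT7 is the only subunit whose chrysin libraries (420 to 434 FPKM) lie below all of its other libraries.

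The heat shock factors themselves changed with chrysin. HSF1, the main activator of these genes, was at 86.6, 81.0 and 78.6 FPKM in low glucose, 78.0, 70.3 and 68.0 in high glucose and 96.0, 94.6 and 97.1 with chrysin. The chrysin libraries were the highest, 1.33-fold above high glucose (0.41, SE 0.05, adjusted p = 8.1e-05) and above low glucose by 0.22 (adjusted p = 0.0039). The fall in high glucose (-0.19, adjusted p = 0.023) left the groups separate by less than 1 FPKM and lost its call when the filter was dropped (0.064) or when any of these was left out: library 1 of low glucose (0.086), library 2 (0.075) or library 3 (0.077) of high glucose. HSF1 overlaps DGAT1 on the other strand. HSF2, which can pair with HSF1, was at 13.7, 13.9 and 14.0 FPKM in low glucose, 12.3, 13.8 and 12.3 in high glucose and 16.2, 15.2 and 15.4 with chrysin, and rose with chrysin against high glucose (0.28, adjusted p = 0.0025). Its call against low glucose (0.17, adjusted p = 0.033) was lost under 8 of 17 alternatives (0.054 to 0.26), leaving out any low glucose library or chrysin library 1 or 3 among them. Activity of HSF1 is controlled mainly after translation, which RNA levels do not show.

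The RNA changes can be set beside the promoter matches printed above. Of the 6 members with a 3-unit match, 2 rose in high glucose (HSPA8 and DNAJB6) and 4 with chrysin (CHORDC1, HSPD1, HSP90AB1 and DNAJB6), with medians of 0.03 and 0.18. Of the 13 with 2 units only, 7 rose in high glucose and 7 with chrysin, where 1 fell (HSPB1), with medians of 0.17 and 0.22. Of the 24 with no match, 11 rose and 3 fell in high glucose and 14 rose and 3 fell with chrysin, with medians of 0.07 and 0.16. Over all genes 14.6% were higher and 8.91% lower in high glucose and 24.9% and 20.9% with chrysin, with medians of 0.02 and 0.03. These are counts without a test.

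Other genes of the system were taken from 6 lists of 91 genes, of which 83 rows passed the filter: 16 rose and 9 fell in high glucose, and 28 rose and 13 fell with chrysin. In high glucose these were 19.3% and 10.8%, near the 14.6% and 8.91% of all genes, and with chrysin 33.7% and 15.7%, beside 24.9% and 20.9%. The lists are small, and their counts are to be read against those shares. Among 12 other mitochondrial chaperones and proteases 1 rose and 3 fell in high glucose (8.33% and 25.0%), GRPEL2 (-0.44, adjusted p = 0.00047), a nucleotide exchange factor of HSPA9, and the protease LONP1 (-0.27, adjusted p = 0.00054) with the smallest p. With chrysin 8 of the 12 rose (66.7%), led by the inner membrane proteases YME1L1 (0.28, adjusted p = 1.6e-05) and SPG7 (0.32, adjusted p = 4e-05). Of 27 tested J-domain proteins outside the members 2 rose and 2 fell in high glucose (7.41% each, below the shares of all genes), with DNAJC6 (-0.48), which uncoats clathrin vesicles, and DNAJC8 (0.14) first by p. With chrysin 11 rose and 2 fell (40.7% and 7.41%), with DNAJC9 (-0.44), a histone chaperone, and DNAJC11 (0.36), of the mitochondrial membrane, first.

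Of 11 tested further Hsp90 co-chaperones 3 rose in high glucose (27.3%), SGTA (0.17) and the phosphatase PPP5C (0.11) first, and 4 rose and 2 fell with chrysin (36.4% and 18.2%), led by the cyclophilin PPID (0.42, adjusted p = 5.3e-06) and SGTA (0.40, adjusted p = 2.5e-05). Prefoldin and tubulin cofactors, which work with TRiC/CCT, were mixed: of 15 rows 2 rose and 3 fell in high glucose (13.3% and 20%), among them PFDN1 (0.21) and PFDN2 (-0.19), and 2 rose and 4 fell with chrysin (13.3% and 26.7%), among them TBCB (-0.44) and PFDN4 (-0.47). Of 11 tested other Hsp70, small heat shock and heat shock factor genes 4 rose in high glucose (36.4%), CCT6A and HSBP1 (0.17) first, and 2 rose and 2 fell with chrysin (18.2% each), where HSPB3 (-1.29, adjusted p = 0.001) rested on levels of 1.34 FPKM in high glucose and 0.256 with chrysin. HSPA6, an Hsp70 seen only under strong stress, stayed between 0.174 and 0.694 FPKM and passed neither comparison (adjusted p = 0.16 in both).

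The last list held 7 other known targets of HSF1. In high glucose 4 rose and 1 fell (57.1% and 14.3%), the latter ZFAND2A (-0.50, adjusted p = 0.001). With chrysin ZFAND2A rose and 3 fell (14.3% and 42.9%), with the ubiquitin gene UBB (-0.43, adjusted p = 1.6e-06) and SERPINH1 (-0.36, adjusted p = 2.8e-06), the collagen chaperone Hsp47, first. The mean level of SERPINH1 was 333 FPKM in the low glucose libraries, 376 in high glucose and 294 with chrysin, beside the fall of 7 of 8 fibroblast markers given above. Against low glucose, chrysin with high glucose gave 30 higher and 16 lower rows over the 6 lists, 36.1% and 19.3%, near the 29.7% and 21.3% of all genes. Those with the smallest p in each list were YME1L1 (0.31) and GRPEL1 (0.49), CCT6A (0.26) and HSBP1 (0.23), DNAJC9 (-0.38) and DNAJC8 (0.36), UBB (-0.24), TBCB (-0.40) and PFDN4 (-0.56), and SGTA (0.57) and PPID (0.47). The ER chaperone HSPA5, no member of the group and singled out after its values were seen, was at 1186 to 1282 FPKM in the low glucose libraries, 276 to 284.5 in high glucose and 239 to 243 with chrysin.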

How the data were processed

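RNA of 9 AC16 libraries was sequenced by the authors, and the deposited table holds FPKM per gene and library. Per the submitters' processing notes, the genome was hg38 and the tools were HISAT2 2.2.1, HTSeq 0.13.5, StringTie 2.2.1 and fastp 0.23.4, with no settings stated in the sources used here. Groups came from the treatment labels. log2(FPKM + 0.5) of the 16996 rows with a group mean of at least 0.5 FPKM was fitted with limma 3.58.1 (R 4.3.3, trend, 9 libraries in 1 fit, 3 contrasts), with Benjamini-Hochberg adjustment over all rows and calls at an adjusted p under 0.05. Fold changes are on that scale, which understates low genes. Whole reads were recovered from the FPKM steps (100.0% of 28230 genes seen in at least 2 libraries, within 0.08 of a whole number) and refitted with limma voom and TMM scaling; depth was 18171842 to 23024300 reads. The fit was tested on simulated data. Alternatives were 2 other pseudocounts, 2 other filters, 2 scalings, the replicate number as a block, only the compared groups, and leaving out each library, 17 in all. Members and lists were chosen with earlier results of these data known. Genes described singly were key members of each family, other members called without overlap at a log2 difference of at least 0.3 in size, and the 2 called genes of smallest p per list and comparison. Of these, a single gene is not reported here.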

Additional observations from a re-analysis of the deposited data

How the results depend on the processing

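The counts of chaperone rows called higher stayed within 1.5 times their value under all 17 alternatives. The median log2 difference of the members in high against low glucose was 0.107 with a pseudocount of 0.1, 0.116 with a minimum of 5 FPKM, 0.0648 with median-of-ratios scaling, 0.0798 with limma voom and 0.103 with only the groups compared, and 0.0764 to 0.121 when 1 library was left out. For chrysin against high glucose it was 0.155 with a pseudocount of 1, 0.134 with median-of-ratios scaling, 0.118 with limma voom and 0.145 to 0.177 when 1 library was left out. For chrysin against low glucose it was 0.236 with a pseudocount of 0.1, 0.238 with a minimum of 5 FPKM, 0.172 with median-of-ratios scaling, 0.157 with limma voom and 0.224 to 0.251 when 1 library was left out. Rows lower in that comparison numbered 3 to 5 when 1 library was left out, and 3 without low glucose library 1 or 2 or chrysin library 2. HSP90AA1 in that comparison turned to -0.0742 with limma voom, where the median over all genes went from 0.0508 to -0.0238. The cause was not tested. Of the calls, 22 of 26, 28 of 32 and 32 of 41 held under every alternative in the 3 comparisons, in the order above. Over all genes, 1514 were lower in high glucose by limma on FPKM and 2326 by limma voom. The median over all genes also fell with the other scalings. In high against low glucose it was 0.0246 in the main fit, 0.0 with median-of-ratios scaling and -0.0096 with limma voom. In the same order it was 0.0298, 0.0027 and -0.0097 for chrysin against high glucose. For chrysin against low glucose it was 0.0508, -0.0023 and -0.0238.

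The replicate numbers did not pair the libraries: deviations of same-numbered libraries correlated between -0.12 and 0.087. With the replicate block, members higher and lower were 21 and 5 in high glucose, 27 and 4 with chrysin against high glucose, and 34 and 5 against low glucose. With 11 reads or fewer per library for HSPB8 and 11 to 40 for HSPA1L, differences in these genes were not detectable unless large. Intervals on reads would cover counting error only.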
